A study of Mus musculus with 4 samples.

Results

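The complement genes examined here were the 3 chains of C1q (C1qa, C1qb and C1qc), the central component C3 and the receptors C3ar1 and C5ar1. These 6 genes were taken by name from a total of 21981 in the deposited tables, and all 6 had a count in every library. The RNA came from microglia of the cerebral cortex of untreated mouse embryos at embryonic day 16, in 2 libraries of genotype Bach1 cKO (cKO 2 and cKO 5) and 2 of genotype Bach1 fl/fl (control 1 and control 6). The knockout is conditional, with a driver that the series text names Cx3, and the controls carry the floxed allele that the knockout also starts from. The promoter and the cells in which the driver acts are not spelled out in the sources used here. The series text mentions triplicates; libraries beyond these 4 were not analysed here. Nothing in the labels says that libraries came from separate animals, so p-values measure only the spread between these samples.

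Complement is a cascade of serum and tissue proteins that tags targets for removal by phagocytes. C1q, a bundle of 3 related chains with collagen-like stalks and globular heads, starts the classical route. Cleavage of C3 then deposits an opsonin and frees the peptide C3a, whose receptor is C3ar1, and cleavage of C5 frees C5a, which acts through C5ar1. In the brain, microglia are the main source of C1q, and C1q and C3 are known for marking synapses that microglia engulf.

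The libraries held between 17233115 and 19305078 reads. Of the microglial markers, 20 of 20 were counted in every library, which alone is no check of the tissue label. Their summed level was 7532 CPM in library cKO 2 and 27055 CPM in library cKO 5 (CPM, reads scaled to the library total). In control 1 it was 20066 CPM and in control 6 it was 30992 CPM. Markers of cortical excitatory neurons (10 of 10 counted) moved the other way, with sums of 3635 CPM (cKO 2) and 295 CPM (cKO 5), against 1071 CPM (control 1) and 323 CPM (control 6). Endothelial markers (10 of 10 in the tables, with Slco1a4 at 0 in cKO 5 and without a row for control 6) summed to 2446 and 330 CPM in the cKO libraries and 3161 and 589 CPM in the controls. Pericyte and meningeal fibroblast markers (9 of 10 in the tables) summed to 3289 and 267 CPM in the cKO libraries and 3630 and 702 CPM in the controls. Radial glia and astrocyte markers (9 of 10 in the tables) summed to 1009 and 78.5 CPM in the cKO libraries and 368 and 111 CPM in the controls. Library cKO 2 thus stood apart, with the lowest microglial and the highest neuronal sum. Bach1 itself was at 30.0 CPM in library cKO 2 and at 35.4 CPM in library cKO 5, against 45.8 CPM in control 1 and 21.6 CPM in control 6. Its log2 fold change was −0.07 ± 0.47 (SE; adjusted p = 0.9997, edgeR's quasi-likelihood test), and since these reads can come from exons that the deletion leaves in place, the value is no check of the labels.

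The C1q chains were the most abundant members, and the summed C1q reads made up 0.369% of cKO 2 and 1.64% of cKO 5, against 0.805% of control 1 and 1.56% of control 6. C1qa (ENSMUSG00000036887), which encodes the A chain, had 1591 CPM in library cKO 2 and 6924 CPM in library cKO 5, against 4213 CPM in control 1 and 5877 CPM in control 6. The lowest and the highest C1qa value were thus both in cKO libraries, and the genotypes overlapped. C1qb (ENSMUSG00000036905), the gene of the B chain, had 1375 CPM in library cKO 2 and 5219 CPM in library cKO 5, against 3103 CPM in control 1 and 5365 CPM in control 6. It was low in cKO 2, intermediate in control 1 and high in the other two libraries, again with overlap. C1qc (ENSMUSG00000036896), the gene of the C chain, had 725 CPM in library cKO 2 and 4278 CPM in library cKO 5, against 730 CPM in control 1 and 4315 CPM in control 6. Its values formed a low pair and a high pair, and each pair held 1 library of each genotype.

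The plot of CPM by library shows the arrangement of all 6 members, and it was the C chain that departed from the others in control 1.

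**Figure D1:**
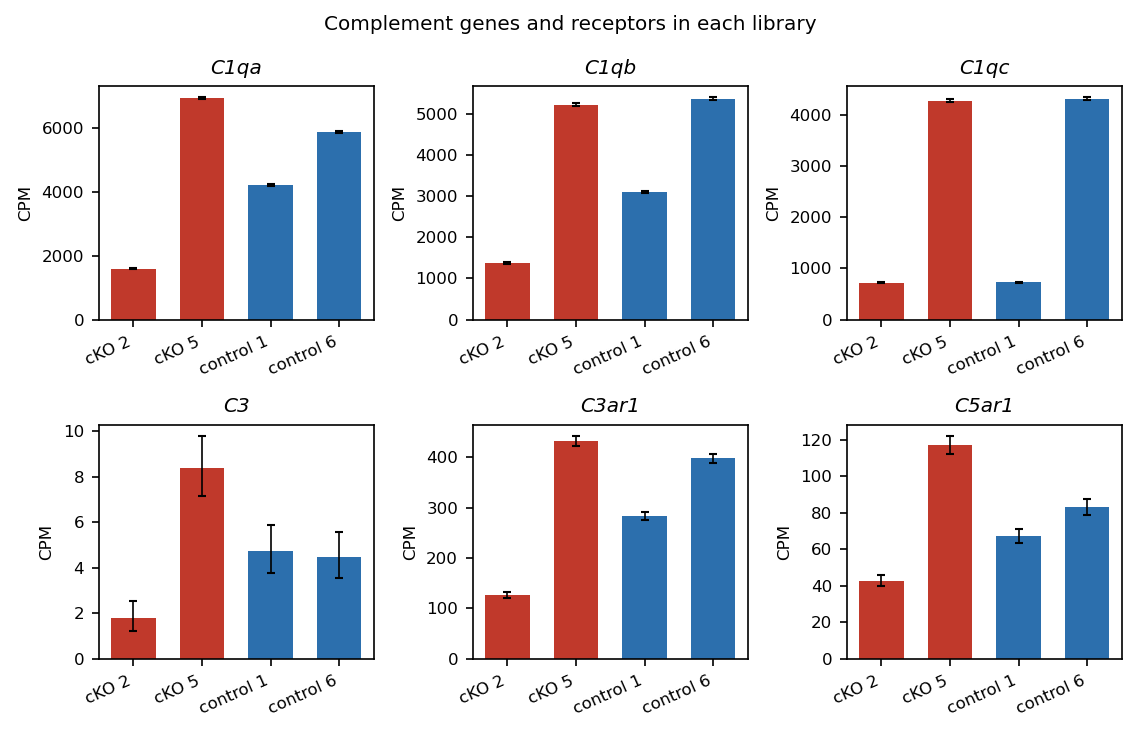
Level of each member in CPM (vertical axis, starting at 0 with its own scale per gene) in the 4 libraries, cKO in red and control in blue; bars are single libraries and whiskers are exact 95% Poisson intervals for counting error only. Library cKO 2 is the lowest bar for all 6 genes, and C1qc has 725 and 730 CPM in cKO 2 and control 1 beside 4278 and 4315 CPM in cKO 5 and control 6.

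The C1q genes lie side by side on the minus strand of chromosome 4 in GRCm38, and all are protein-coding. C1qa spans 136895917 to 136898803, C1qc 136889804 to 136893065 and C1qb 136880129 to 136886187. The gap is 2851 bases between C1qc and C1qa and 3616 bases between C1qb and C1qc, and no other annotated gene overlaps any of the 3 in GENCODE M21. The RefSeq promoter table (GRCm38.p6) holds 5 of the 6 members; C1qa is the other. Shown are the bases upstream of the first annotated transcript start. They are given for C1qb and C1qc, as neighbours whose levels differed in control 1, and for C3ar1. Among these 5 genes, C3ar1 has the 1 match to the AP-1 site, also the core of the BACH1 and small MAF site. Only this core was searched, without the bases that flank it in the BACH1 and MAF site. Capitals mark matches to GAGGAA, the core bound by ETS factors such as PU.1, or TGAGTCA, the AP-1 site and core of the BACH1 and MAF site, on either strand.
C1qb, chr4:136886201-136886450, minus strand: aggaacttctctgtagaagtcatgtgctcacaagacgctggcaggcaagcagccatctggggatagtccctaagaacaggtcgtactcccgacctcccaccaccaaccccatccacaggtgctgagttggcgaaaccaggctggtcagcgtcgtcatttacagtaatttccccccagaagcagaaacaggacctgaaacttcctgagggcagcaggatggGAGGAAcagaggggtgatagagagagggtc
C1qc, chr4:136893066-136893164, minus strand: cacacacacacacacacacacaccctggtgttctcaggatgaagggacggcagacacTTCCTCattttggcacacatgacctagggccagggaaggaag
C3ar1, chr6:122856162-122856407, minus strand: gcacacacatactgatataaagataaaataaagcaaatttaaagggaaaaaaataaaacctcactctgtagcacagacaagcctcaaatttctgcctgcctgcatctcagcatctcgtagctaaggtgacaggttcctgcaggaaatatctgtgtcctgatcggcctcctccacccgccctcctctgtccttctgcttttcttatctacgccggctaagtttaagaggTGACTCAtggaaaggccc

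The search covered both strands of the full 300-base windows, which run from 250 bases before to 50 bases after the RefSeq start site. GAGGAA occurred once each in the windows of C1qb and C1qc and in 28.3% of all 32851 windows. TGAGTCA occurred once in the window of C3ar1, as TGACTCA on the shown strand, and in 5.20% of all windows. The core of the interferon-stimulated response element was in none of the 5 members' windows and in 3.44% of all. These matches describe letters only and show no binding.

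Within the C1q reads, the C chain took a different share in each library. C1qc made up 19.6% of C1q reads in cKO 2 and 26.1% in cKO 5, against 9.08% in control 1 and 27.7% in control 6. The 95% Wilson bounds, which cover counting error only, lay within 0.4 percentage points of each share, and no interval touched another. The ratio of C1qb to C1qa in CPM was 0.864 in cKO 2 and 0.754 in cKO 5, against 0.736 in control 1 and 0.913 in control 6. The ratio of C1qc to C1qa was 0.456 in cKO 2 and 0.618 in cKO 5, against 0.173 in control 1 and 0.734 in control 6. From library to library, C1qb to C1qa thus ran from 0.736 to 0.913 and C1qc to C1qa from 0.173 to 0.734. Wilson intervals of the C1qa and C1qb shares did not touch between libraries either. The C chain was lowest against both other chains in control 1.

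C3 (ENSMUSG00000024164, chromosome 17, 57203970 to 57228136, minus strand) was the least abundant member. It had 1.79 CPM in cKO 2 (31 reads) and 8.39 CPM in cKO 5 (162 reads), against 4.75 CPM in control 1 (83 reads) and 4.47 CPM in control 6 (77 reads). At this depth the 95% Poisson intervals of the controls, 3.78 to 5.89 CPM and 3.53 to 5.58 CPM, overlapped each other, whereas cKO 2 (1.22 to 2.54 CPM) lay below them and cKO 5 (7.15 to 9.79 CPM) above. A microRNA gene, Mir6978, lies within C3 on the same strand over 57 bases.

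C3ar1 (ENSMUSG00000040552, chromosome 6, 122847138 to 122856161, minus strand), the C3a receptor gene, had 126 CPM in library cKO 2 and 433 CPM in library cKO 5, against 284 CPM in control 1 and 398 CPM in control 6. C5ar1 (ENSMUSG00000049130, chromosome 7, 16246743 to 16259540, minus strand), the C5a receptor gene, had 42.7 CPM in library cKO 2 and 117 CPM in library cKO 5, against 67.2 CPM in control 1 and 83.2 CPM in control 6. For both receptors the controls lay between the cKO libraries. No other annotated gene overlaps either receptor gene.

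Per kilobase of exon, the order of the members was C1qa, C1qb, C1qc, C3ar1, C5ar1 and C3 in each of the 4 libraries. C1qa ranged over 1530 and 6658 CPM per kilobase in cKO 2 and cKO 5 and over 4051 and 5651 in control 1 and control 6, and C1qb over 1264 and 4797 in the cKO libraries and 2852 and 4931 in the controls. The ranges of C1qa and C1qb overlapped between libraries. Within each library C1qa was higher, with C1qb at 0.704 to 0.873 of the C1qa level per kilobase. C1qc came next at 375 and 2215 CPM per kilobase in the cKO libraries and 378 and 2235 in the controls, and its range overlapped that of C1qb. Its exon length of 1931 bases includes a processed transcript of the gene; with the longest transcript, 1203 bases, its values were 603 and 3556 in the cKO libraries and 607 and 3587 in the controls. C3ar1 had 29.4 and 101 CPM per kilobase in the cKO libraries and 65.9 and 92.3 in the controls. C5ar1 followed with 16.6 and 45.5 in the cKO libraries and 26.1 and 32.4 in the controls, so that the receptors overlapped across libraries. C3, at 0.348 and 1.63 CPM per kilobase in the cKO libraries and 0.924 and 0.869 in the controls, lay below all C5ar1 values.

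The contrast of genotypes asks which of these genes differ in microglia of Bach1 knockouts. Counts were compared with edgeR's quasi-likelihood test, after scaling on trimmed means of gene ratios (TMM), over 15951 genes, of which 0 passed an adjusted p of 0.05 (0% called), and 49 had an unadjusted p under 0.05 (0.307%). DESeq2 and limma-voom also gave 0 genes, with 74 and 37 at an unadjusted p under 0.05. None of the 6 members passed (adjusted p = 0.9997 for each). C1qa averaged 4257 ± 3771 CPM in cKO and 5045 ± 1176 CPM in control (SD, n = 2 each), a log2 fold change of −0.23 ± 1.03 (SE). C1qb had a log2 fold change of −0.36 ± 0.99, C1qc of −0.03 ± 1.37 and C3ar1 of −0.29 ± 0.79. C3 had 0.17 ± 0.99 and C5ar1 0.08 ± 0.67. The median of the 6 was −0.13, beside 0.03 for all tested genes. Each value was smaller than its standard error, and the spread was wide: 2 standard errors on either side of the C1qa estimate ran from −2.30 to 1.83. A C1q change of that size in either direction was therefore not detectable with these libraries.

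No member separated the genotypes in CPM: for 0 of 6 did both cKO libraries lie on one side of both controls, as they did for 15.9% of tested genes. Library cKO 2 was the lowest of the 4 for 6 of 6 members, against 25.2% of tested genes, and for 20 of 20 microglial markers. For C1qa, C3, C3ar1 and C5ar1 (4 of 6) cKO 5 was also the highest, so that both controls lay between the cKO libraries, against 12.3% of tested genes. In these bulk samples, fewer microglia and less RNA per microglial cell cannot be told apart.

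The sign of each member's fold change turned with the libraries used or with the scaling. Without cKO 2 the log2 fold changes were 0.55 ± 0.64 for C1qa, 0.39 ± 0.67 for C1qb, 0.81 ± 1.04 for C1qc, 0.97 ± 0.67 for C3, 0.44 ± 0.44 for C3ar1 and 0.74 ± 0.39 for C5ar1. Without cKO 5 they were −1.93 ± 0.58, −1.90 ± 0.65, −2.11 ± 1.24, −1.61 ± 0.86, −1.70 ± 0.49 and −1.08 ± 0.44 in the same order of genes. None passed the threshold in either fit (smallest adjusted p of a member 0.468, edgeR's quasi-likelihood test). All 6 members were thus positive without cKO 2 and negative without cKO 5. Leaving out a control moved C1qc most, to 1.90 ± 1.86 without control 6 and −0.81 ± 2.02 without control 1. Without control 6, C1qa (0.13 ± 1.87), C1qb (0.19 ± 1.73) and C3ar1 (0.08 ± 1.15) were positive as well, and without control 1 C5ar1 was at −0.13 ± 0.96. In each of these fits the lone library of its genotype is assumed to vary like the other pair.

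**Figure D2:**
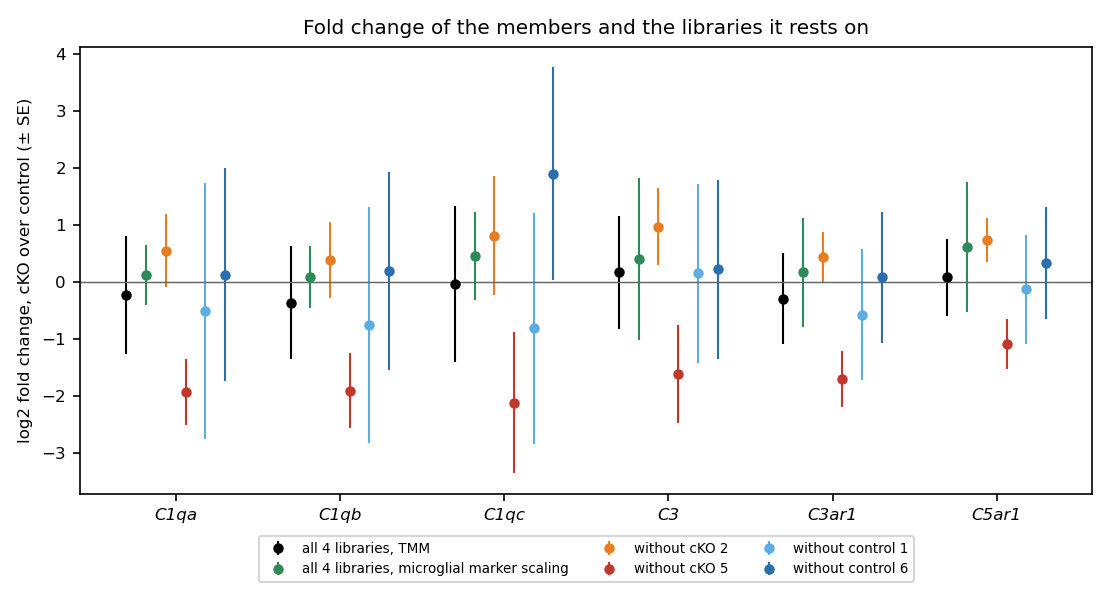
Log2 fold change of cKO over control (vertical axis, ± SE) for each member in 6 fits: all libraries with TMM scaling, all libraries scaled on microglial markers, and each library left out in turn. Without cKO 5 the 6 values lie between −2.11 and −1.08, and without cKO 2 between 0.39 and 0.97.

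The deposited pairwise comparisons show the same dependence from the authors' side. In the authors' deposited table of cKO 2 against control 1, C1qa, C1qb, C3 and C3ar1 (4 of 6) were called lower, beside 11.6% of its genes called lower and 31.6% called in either direction. In the authors' deposited table of cKO 2 against control 6, these 4 and C1qc (5 of 6) were called lower, beside 13.4% of its genes called lower and 47.1% in either direction. In the authors' deposited table of cKO 5 against control 1, C1qc alone was called, as higher (log2 fold change 2.55), beside 8.79% of genes called higher, 26.0% called lower and 34.8% in either direction. In the authors' deposited table of cKO 5 against control 6, 0 of 6 members were called, beside 9.23% of genes called higher and 20.6% called in either direction. The C1qc log2 fold change in the authors' deposited tables was −0.01 for cKO 2 against control 1 and −2.57 for cKO 2 against control 6. These tables share libraries and each compares single libraries, so their calls concern those libraries and are not independent.

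The libraries of a genotype were then compared with each other, with 1 library a side and no test. The cKO 5 level was 4.35 times that of cKO 2 for C1qa, 3.80 times for C1qb, 5.90 times for C1qc and 4.69 times for C3. It was 3.42 times for C3ar1 and 2.74 times for C5ar1. All 6 members were past 2-fold, as were 15.2% of tested genes, and the 20 microglial markers ranged from 2.83 to 4.80 times. Between the controls, control 6 over control 1 was 1.39 for C1qa, 1.73 for C1qb, 1.40 for C3ar1, 1.24 for C5ar1 and 0.941 for C3. C1qc was the exception at 5.91, the 1 member of 6 past 2-fold, where 5.91% of tested genes were past it. Among the 20 microglial markers the median was 1.60, and 1 was past 2-fold: Spi1, the gene of the myeloid transcription factor PU.1, at 4.35.

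**Figure D3:**
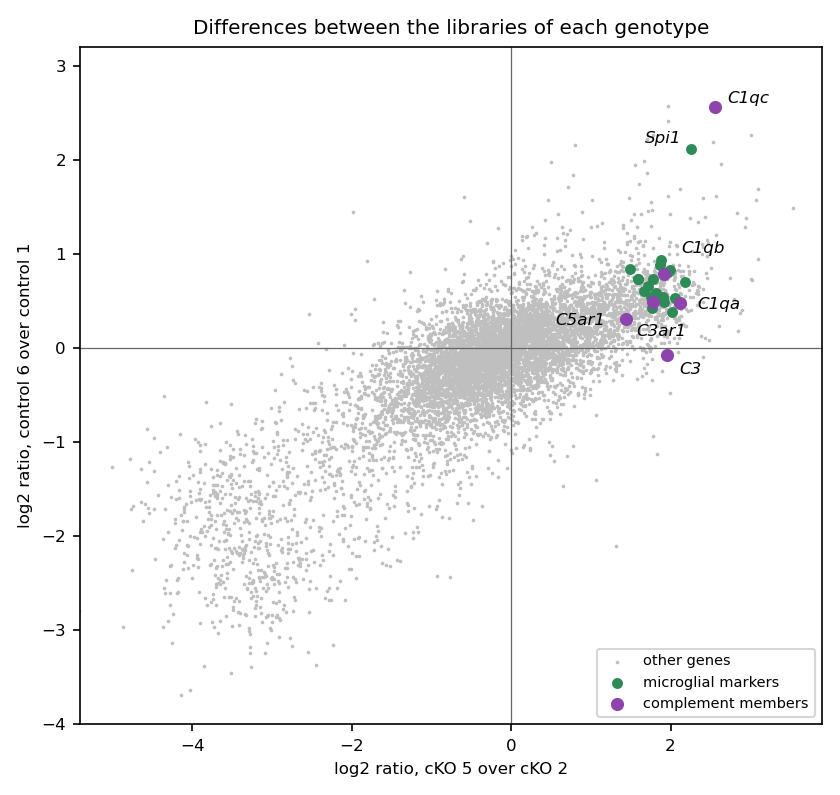
Log2 ratio of cKO 5 over cKO 2 (horizontal axis) against that of control 6 over control 1 (vertical axis) for 7489 genes with a mean of at least 20 CPM (grey; 5 lie outside the axes), with microglial markers in green and the 6 members in purple, each on log2(CPM + 0.5). C1qa, C1qb, C3ar1 and C5ar1 sit among or just below the markers. C3 sits lower, with a control 6 over control 1 ratio of 0.941, where the lowest marker had 1.30. C1qc, with ratios of 5.90 and 5.91, and Spi1, with 4.80 and 4.35, sit above the other markers.

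The 2-level arrangement of C1qc was rare. Of 7489 genes with a mean of at least 20 CPM, 11 (0.147%) had both cKO 5 and control 6 at least 3-fold above both cKO 2 and control 1, a criterion chosen after the C1qc values were seen. C1qc had the largest gap of these, 5.86-fold between the nearest libraries. The others were Slc16a10, Fam49b, Spi1, Sumf1, Fam105a, Mgat2, Gpatch3, Tmem55b, Syap1 and Rab24. Spi1 had 143 CPM in library cKO 2 and 686 CPM in library cKO 5, against 155 CPM in control 1 and 676 CPM in control 6. Fam49b had 70.1 and 409 CPM in cKO 2 and cKO 5, against 69.0 and 317 CPM in control 1 and control 6. The opposite arrangement, with cKO 2 and control 1 higher, was found for 6.00% of these genes, and the summed neuronal and endothelial markers were higher in cKO 2 and control 1 too. Their part in the C1qc result was not tested. The reads were not analysed here, so whether mapping or counting differed between the libraries at C1qc and Spi1 was not tested either, and their levels hold only as counted.

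Set against the microglial markers, most of the difference between libraries was gone for C1qa, C1qb and C3ar1. The relative level used here is log2(CPM + 0.5) of a gene minus the mean of that value over the 20 markers. C1qb stood 2.87 and 2.95 above the marker mean in cKO 2 and cKO 5, against 2.78 and 2.84 in control 1 and control 6. The 4 C1qb values span 0.16, close to the smallest range of a single marker (0.15, Laptm5), where the median was 0.29. C1qa stood 3.08 and 3.35 above in the cKO libraries and 3.23 and 2.98 in the controls, and C3ar1 was at −0.57 and −0.65 in the cKO libraries and −0.66 and −0.91 in the controls. These genes thus differed between libraries little more than the markers did among themselves.

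C1qc varied more than any of the 20 markers, while C3 (range 0.98) and C5ar1 (range 1.04) varied more than every marker except Spi1. C1qc stood 1.95 and 2.66 above the marker mean in cKO 2 and cKO 5, against 0.70 and 2.53 in control 1 and control 6, a range of 1.96 log2 units, where the widest range of a marker was 1.55 for Spi1 and 0.50 for the next, Siglech. Relative to the markers, C1qc was thus lowest in control 1 and next lowest in cKO 2, below its level in the other two libraries. C5ar1 was at −2.12 and −2.53 in the cKO libraries and −2.73 and −3.16 in the controls, and C3 at −6.36 and −6.25 in the cKO libraries and −6.42 and −7.23 in the controls.

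**Figure D4:**
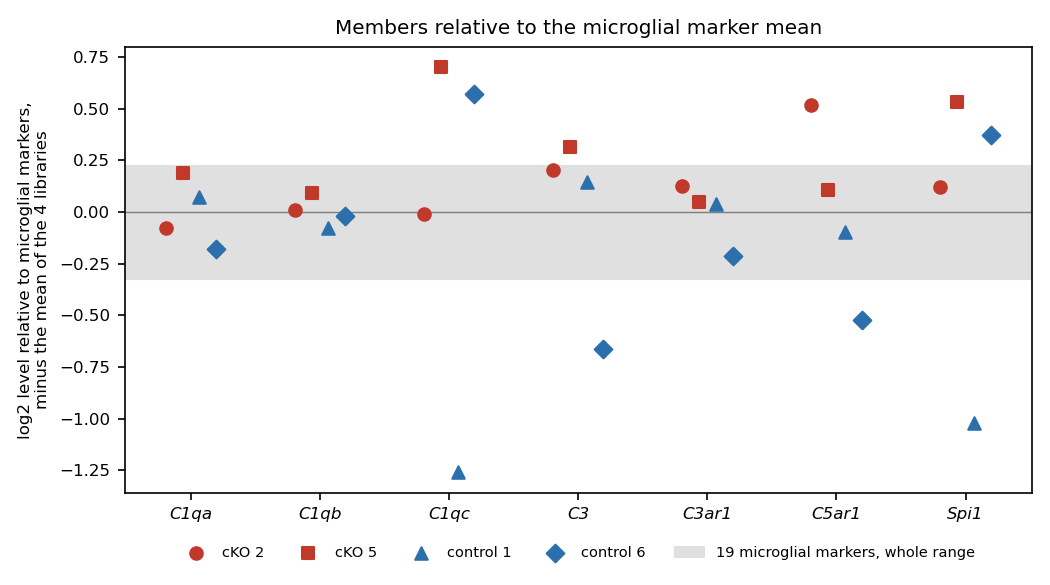
Level of each member and of Spi1 relative to the mean of the microglial markers, in log2 units and centred on the mean of the 4 libraries (vertical axis); symbols are libraries, cKO in red and control in blue, and the grey band is the whole range of the 19 other markers, −0.33 to 0.22. C1qa, C1qb and C3ar1 lie within the band in all libraries, and control 1 falls to −1.26 for C1qc and −1.02 for Spi1.

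On this relative scale both cKO libraries lay above both controls for C1qb, C3, C3ar1 and C5ar1. These were 4 of 6 members, against 9.30% of tested genes and 4 of 20 microglial markers. The nearest cKO and control values were 2.87 and 2.84 for C1qb, −0.65 and −0.66 for C3ar1 and −6.36 and −6.42 for C3. For C5ar1 they were −2.53 and −2.73. The gaps of C1qb, C3 and C3ar1 were thus smaller than the smallest range of a single marker (0.15, Laptm5). Without the pseudocount, an alternative added after the values were seen, C3 no longer separated the genotypes, at −6.71 and −6.33 in the cKO libraries and −6.56 and −7.38 in the controls. That left 3 of 6 members, against 9.59% of tested genes counted in every library. With the pseudocount, for 0 members did both cKO libraries lie below both controls, against 0.476% of tested genes. The mean cKO minus control difference was 0.62 for C5ar1, 0.52 for C3, 0.18 for C3ar1 and 0.09 for C1qb. With the fit itself scaled on the microglial markers, the median over all genes was 1.09 (log2), against 0.03 with TMM scaling, and the members' log2 fold changes were 0.62 ± 1.14 for C5ar1, 0.41 ± 1.42 for C3, 0.46 ± 0.77 for C1qc, 0.17 ± 0.95 for C3ar1, 0.12 ± 0.52 for C1qa and 0.09 ± 0.54 for C1qb. Relative to that median all 6 were negative, between −0.99 for C1qb and −0.47 for C5ar1. No member passed (smallest adjusted p of a member 0.830, edgeR's quasi-likelihood test). Border-associated macrophages, which also express complement genes, had 10 of 10 markers in the tables, with Cd163 at 0 in control 6, and Cd209f at 0 in both controls and without a row for cKO 2. Their summed level was 405 CPM in library cKO 2 and 1822 CPM in library cKO 5, against 948 and 1210 CPM in control 1 and control 6. Monocyte and neutrophil markers (9 of 10 in the tables, Mpo at 0 in cKO 2 and control 6) summed to 71.5 and 250 CPM in the cKO libraries and 134 and 193 CPM in the controls. Much of the first sum was Stab1, with 273 and 1277 CPM in the cKO libraries and 699 and 917 CPM in the controls. Much of the second was Ngp, with 40.1 and 148 CPM in the cKO libraries and 68.3 and 110 CPM in the controls. Both sums were highest in cKO 5, as C1qa, C3, C3ar1 and C5ar1 were in CPM. The part of these cells in the members' values was not tested.

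Genes whose profile over the 4 libraries was closest to each member were found by the distance between centred log2(CPM + 0.5) values among 7484 other genes with a mean of at least 20 CPM. For the mean of the C1q chains these included Adssl1 (distance 0.11), Tram1 (0.17), Tspan32 (0.21) and Tfec (0.25). For C3 they were F13a1 (0.16), a marker of border-associated macrophages in the list used here, Hacd4 (0.17) and Irak4 (0.17). For C3ar1 they were Siglecf (0.03), Pnp (0.04) and Sash3 (0.05), and for C5ar1 Aldh2 (0.07), Lgals3 (0.09) and Aim2 (0.09). Siglecf had 19.1 and 68.3 CPM in the cKO libraries and 44.4 and 62.9 CPM in the controls. C1qa and C1qc taken singly had different neighbours, Npl (0.06) and Fam49b (0.33). With 4 libraries such likeness describes these samples only.

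The rest of the complement system was represented by 43 of 56 listed genes, of which 34 passed the filter on low counts. None of the 34 was called in either direction (0 higher and 0 lower), 19 had a positive and 15 a negative log2 fold change, and the median was 0.20, beside 0.03 for all tested genes. Itgam was the 1 tested gene of the list with both cKO libraries below both controls in CPM (6.57% of tested genes), and 0 had both above (9.31%). Of the 19 genes with a mean of at least 5 CPM, 9 had a profile closest to one of the 3 lists of microglia, border-associated macrophages or monocytes and neutrophils. Another 9 were closest to a neural or vascular list, and Cd59a to the erythroid list. The list was therefore split between genes that followed microglial RNA and genes that ran against it.

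**Figure D5:**
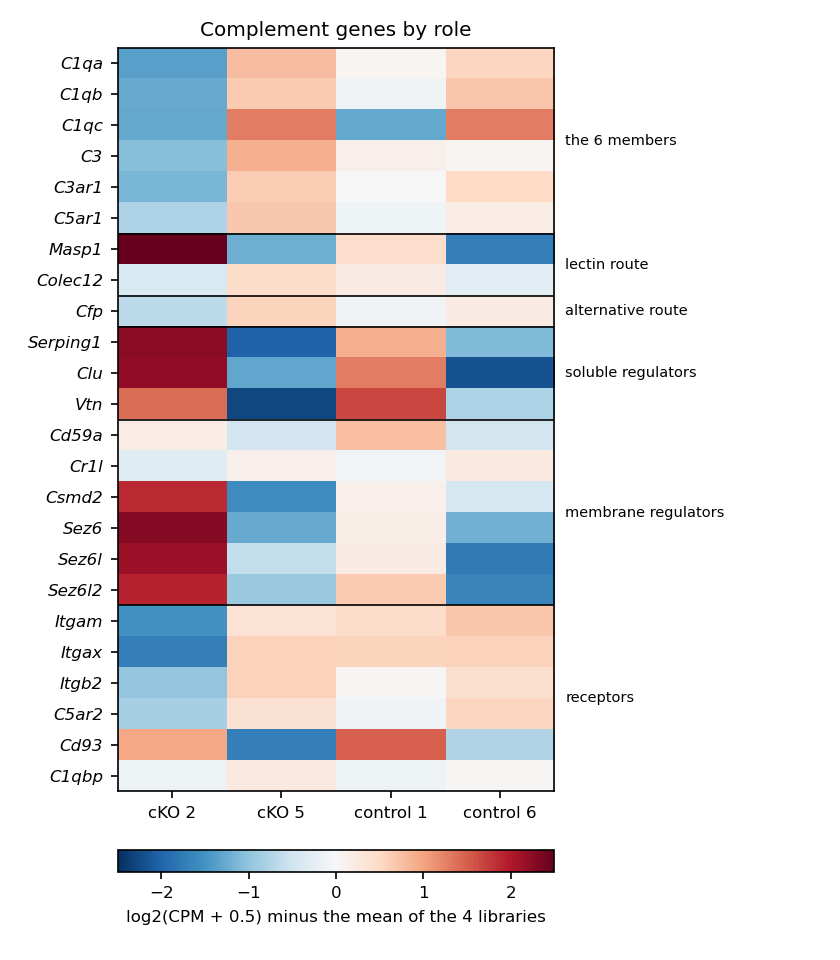
Log2(CPM + 0.5) of each gene minus its mean over the 4 libraries (colour, red higher and blue lower) for the 6 members and 18 other complement genes with a mean of at least 5 CPM, grouped by role; columns are libraries. Masp1, Clu, Sez6 and Serping1 are highest in cKO 2, where the 6 members are lowest.

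Downstream of C1q, the classical route was hardly represented in this RNA. C1s1, which encodes the C1s protease, had 76 reads in cKO 2 and 0 in cKO 5, against 56 in control 1 and 0 in control 6, where 3 reads would be 0.155 CPM in cKO 5 and 0.174 CPM in control 6. C1s2, also on the list, had 4 reads in cKO 2 and 15 in cKO 5, against 2 in control 1 and 3 in control 6. It did not pass the filter on low counts. C1ra, for the C1r protease, had 1.04 and 2.49 CPM in the cKO libraries and 0.916 and 1.80 CPM in the controls. C4b had 0.751 and 2.38 CPM in the cKO libraries and 1.77 and 1.62 CPM in the controls; its near-identical copy C4a makes its count uncertain. C2 was at 0.231 and 1.09 CPM in the cKO libraries and 0.744 and 0.348 CPM in the controls. None of these protease, C4 and C2 genes reached 5 CPM in any library.

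Among the regulators, Cr1l, the gene of the rodent membrane regulator Crry, varied little, with 55.7 and 74.5 CPM in the cKO libraries and 65.7 and 81.4 CPM in the controls. Vtn and Clu encode vitronectin and clusterin, which restrain the membrane attack complex. Vtn had 257 and 19.7 CPM in the cKO libraries and 310 and 56.5 CPM in the controls, closest to the list of pericytes and meningeal fibroblasts. Clu had 87.1 and 7.20 CPM in the cKO libraries and 45.1 and 3.66 CPM in the controls, closest to radial glia and astrocytes. Sez6, a neuronal gene with complement-control repeats, had 471 and 40.1 CPM in the cKO libraries and 109 and 41.8 CPM in the controls. Its log2 fold change was 1.59 ± 1.15, and without cKO 2 it was −0.76.

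Among the other receptors, Itgb2 and Itgam encode the chains of complement receptor 3, which binds cleaved C3. Itgam had 25.0 CPM in library cKO 2 and 93.9 CPM in library cKO 5, against 100 CPM in control 1 and 117 CPM in control 6, so the genotypes did not overlap, though the gap between cKO 5 and control 1 was small. Its log2 fold change was −0.86 ± 0.79 (adjusted p = 0.9997, edgeR's quasi-likelihood test), and it was −0.11 to −2.38 when single libraries were left out. Itgb2 had 83.9 and 249 CPM in the cKO libraries and 171 and 222 CPM in the controls. C5ar2, the second C5a receptor gene, had 12.2 and 29.0 CPM in the cKO libraries and 21.0 and 32.7 CPM in the controls. Cd93, an endothelial and myeloid surface gene once described as a C1q receptor, had 122 and 18.9 CPM in the cKO libraries and 178 and 36.8 CPM in the controls, closest to endothelium. C1qbp, a mitochondrial protein gene also known for binding C1q, had 93.5 and 122 CPM in the cKO libraries and 93.3 and 105 CPM in the controls. Colec12, a scavenger receptor gene of the collectin family, had 26.9 and 48.7 CPM in the cKO libraries and 40.7 and 28.7 CPM in the controls.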

How the data were processed

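Microglial RNA of 4 libraries was analysed from 4 deposited tables, each of 1 cKO and 1 control library. The submitters' processing notes list HTSeq 0.6.0, TopHat2 2.0.12 and Bowtie2 2.2.3 and the build mm9. For their roles, their settings and the use of strand, nothing was stated. Gene positions in the tables were identical to GENCODE M21 (GRCm38) for 90.3% of 21922 matched genes, so GRCm38 is named. The authors deposited raw counts per Ensembl gene and CPM, each count over the library total, with 0.5 reads for a count of 0. The deposited ratio (fold change) of the CPM values, its log2 and a p-value come with calls that matched p under 0.05 and a log2 change of at least 1 for all 79260 table rows; the test is not given.

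Counts were joined on gene ID (18723 genes in all libraries) and tested with edgeR 4.0.16 (R 4.3.3): quasi-likelihood, TMM (1.15, 0.919, 1.03 and 0.917 for cKO 2, cKO 5, control 1 and control 6), a filterByExpr filter at 10 reads, and Benjamini-Hochberg adjustment over 15951 genes, with 2 residual degrees of freedom. The common dispersion was 0.425. Alternatives were DESeq2 1.42.0, limma 3.58.1 (voom), other scalings and filters, and leaving out each library. CPM in the text is not divided by TMM factors. An exact permutation of 2 against 2 libraries has 3 distinct splits and cannot reach 0.05. Members and gene lists were chosen with earlier results of these data known. Other complement genes were named at a mean of at least 20 CPM, and the remainder after their values were seen. Floors and intervals cover counting error only. Genes were assigned to the closest marker list after the values were seen, from lists averaged over members with at least 5 CPM. Some genes that these rules name are not reported here.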

Additional observations from a re-analysis of the deposited data

How the results depend on the processing

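The number of genes called was 0 in all 11 alternatives. No paired analysis was possible because the genotypes share no replicate numbers (2 and 5 against 1 and 6). With factors from the microglial markers the log2 fold change reversed to 0.12 for C1qa, 0.09 for C1qb, 0.46 for C1qc, 0.17 for C3ar1, 0.87 for Vtn, 0.67 for Cr1l, 0.27 for Itgb2, 0.26 for C5ar2 and 0.61 for Cd93. With these marker factors the median over all genes was 1.09 (log2), against 0.03 with TMM scaling. Relative to that median all 6 members were negative. With limma-voom the log2 fold change reversed to −0.35 for C3, −0.16 for C5ar1 and −0.01 for Colec12. The cause was not tested. Leaving out single libraries gave ranges of −1.93 to 0.55 for C1qa, −1.90 to 0.39 for C1qb, −2.11 to 1.90 for C1qc, −1.61 to 0.97 for C3, −1.70 to 0.44 for C3ar1 and −1.08 to 0.74 for C5ar1. For other complement genes the ranges were −0.60 to 0.61 (Colec12), −1.58 to 3.35 (Clu), −3.05 to 0.95 (Vtn), −0.66 to 0.12 (Cr1l), −0.76 to 2.43 (Sez6), −1.49 to 0.44 (Itgb2), −1.40 to 0.20 (C5ar2), −2.34 to 0.62 (Cd93) and −0.34 to 0.40 (C1qbp). Relative to the microglial markers, the C1qb difference of cKO minus control was 0.15 with the median of the markers. It was 0.19 with Csf1r alone, against 0.09 with the mean of the markers. With Csf1r alone, cKO 2 lay below control 6 for C1qb, so C1qb lost its separation of the genotypes. C3, C3ar1 and C5ar1 kept theirs, and C1qa gained one narrowly. Without a pseudocount, tried after the values were seen, the differences of all 6 members moved by less than their spread, though C3 lost its separation of the genotypes. The order of the 6 members held in 4 of 4 libraries without division by length and with the longest transcript. Dispersion between the libraries, and for C3 also its 31 to 162 reads, limited what could be detected.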

Other observations

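Of the genes with the 2-level arrangement of C1qc, Mgat2, an enzyme gene of N-glycan synthesis, had 42.1 CPM in library cKO 2 and 167 CPM in library cKO 5, against 28.3 CPM in control 1 and 153 CPM in control 6. Sumf1, the gene of the sulfatase-activating enzyme, had 47.3 and 187 CPM in the cKO libraries and 35.7 and 215 CPM in the controls. Fam105a had 115 and 719 CPM in the cKO libraries and 174 and 679 CPM in the controls. Slc16a10, an amino acid transporter gene, had 14.2 and 117 CPM in the cKO libraries and 21.6 and 105 CPM in the controls. Cx3cr1, which was not on the list of microglial markers, had 747 and 2756 CPM in the cKO libraries and 4333 and 5158 CPM in the controls. Both cKO libraries thus lay below both controls, as they did for 6.57% of tested genes. The Cx3cr1 log2 fold change was −1.43 ± 0.94 (SE; adjusted p = 0.9997, edgeR's quasi-likelihood test), so Cx3cr1 was not called. A link to the driver that the series text names Cx3 was not tested.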
